A study of Saccharomyces cerevisiae with 18 samples.

Results

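The sites described here are peaks of transposon insertions that 1 of 6 variants of the yeast transcription factor Ste12 held and wild-type (WT) Ste12 did not. A peak was counted as such a site when it had 0 unique molecular identifiers (UMIs, each standing for 1 independent insertion) in both WT libraries, when exactly 1 variant had UMIs in both of its replicates, and when that variant had at least 3 UMIs in both. The sites were thus chosen by their calling-card UMIs. By this rule 221 of 2188 peaks (10.1%) belonged to 1 variant only. For comparison, 137 peaks without WT UMIs were shared by several variants, seen in both of their libraries and at 3 UMIs or more in both libraries of 1 or more, and 275 peaks with no fewer than 3 UMIs in each WT replicate were sites of WT Ste12. UMI numbers are therefore given as a description with no test. A site with 0 UMIs in WT is one where no insertion was detected at this depth, since 3 UMIs, the limit that a count of 0 allows, amounted to 0.0235% of WT replicate 1 and 0.0487% of WT replicate 2. These limits cover counting error only.

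Ste12 stands at the end of the pheromone response pathway of budding yeast, where the MAP kinases Fus3 and Kss1 release it from its inhibitors Dig1 and Dig2. It binds pheromone response elements in the promoters of mating genes, alone or with Mcm1, and joins Tec1 at promoters of filamentation and invasion genes. In the calling-card method a transcription factor is fused to a transposase, so that insertions mark the places where the factor was bound, without showing whether a gene there responds.

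The study asked how replacing 1 amino acid of the DNA-binding domain redirects Ste12 among its targets. The variants were K146D, K152L and A160P, described as reducing mating, and K150A, K150I and S158H, described as mating like WT. Calling cards were collected for these 6 variants and for WT Ste12, with 2 libraries each, from MATα BY4705 cells that kept their own STE12 gene and expressed a Ste12-PiggyBac transposase fusion from the galactose-induced GAL1 promoter. RNA was sequenced from 5 libraries of each genotype, grown to exponential phase, in BY4705 cells deleted for STE12 that carried the variant or WT gene under its own promoter on a centromeric plasmid. The assays therefore came from different strains, Ste12 doses and growth conditions.

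Calling-card libraries held 5904 to 12778 UMIs in peaks, the most in WT replicate 1. RNA libraries held 1039256 to 5481766 UMIs. Among markers of MATα cells in the RNA libraries were 378 to 1243 CPM (UMIs per 1000000 of the library, scaled between libraries) of the alpha-factor gene MF(ALPHA)1, 0.88 to 1339 of MF(ALPHA)2, 71.7 to 966 of the a-factor receptor gene STE3 and 18.5 to 1639 of the agglutinin gene SAG1. The lowest libraries of all 4 were of A160P, which had 378 to 561 CPM of MF(ALPHA)1 against 838 to 1042 in WT, and 18.5 to 39.3 CPM of SAG1 against 949 to 1585 in WT. Of the 7 a-cell genes read, MFA1, MFA2, AGA2 and ASG7 reached at most 4.24, 3.53, 8.58 and 4.57 CPM, but STE6 was at 11.1 to 70.5 CPM, BAR1 at 4.66 to 32.7 and STE2 at 3.78 to 18.4. The regulator genes MATALPHA1 and MATALPHA2 were at 0 or 1 UMI in every library. They share sequence with HMLALPHA1 and HMLALPHA2, and whether reads went uncounted for this reason was not tested. The plasmid-borne STE12 gene was detected in all 35 libraries, but its level was not equal. It was at 282 to 457 CPM in K146D, 274 to 450 in K150A, 199.6 to 418 in K150I, 249.5 to 634 in K152L, 163 to 279 in S158H and 357 to 702 in A160P, against 129.6 to 185 CPM in WT, so that only S158H overlapped WT. STE12 was higher than in WT in K146D, K150A, K152L and A160P (edgeR adjusted p from 6.37e-06 to 0.0079), and with the replicate block in all 6 variants (edgeR adjusted p up to 0.0400). The part of this difference in the comparisons of expression against WT was not tested. Nothing in the labels tells whether replicates were separate cultures, so the spread between them may be technical.

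K146D held nearly as many of these sites as the other variants together. It had 105 of the 221, followed by K150A with 34, A160P with 31, K150I and S158H with 20 each, and K152L with 11. Single libraries moved several of these numbers by more than 1.5 times. Without WT replicate 1 there were 176 sites of K146D only, 56 of K150A, 47 of A160P and 36 of S158H. Without 1 of the variant's own libraries there were 55 for K150A (replicate 1), 60 for A160P (replicate 2), 33 and 39 for S158H (replicates 1 and 2) and 21 for K152L (either replicate). Without a library of another variant there were 21 for K150A and 13 for K150I (S158H replicate 1), 13 for S158H (K150I replicate 1) and 6 for K152L (A160P replicate 1). K146D came first whichever library was left out, but the order of K150A and A160P was not stable. A160P passed K150A without A160P replicate 1 (43 sites against 30) or replicate 2 (60 against 31). It also did so without K146D replicate 1 (29 against 24) or S158H replicate 1 (29 against 21). They were equal without K150I replicate 1 (31 each) or S158H replicate 2 (29 each). Of all sites of a variant (3 UMIs or more in each of its libraries), they made up 30.3% of 347 in K146D and 25.2% of 123 in A160P. The share was 14.8% in K150A, 13.2% in K150I, 9.73% in K152L and 8.26% in S158H. By share of library UMIs K146D again came first, but A160P did not come next. Sites of K146D only took 24.6% of the UMIs in K146D replicate 1 and 23.0% in replicate 2, whereas those of A160P only took 2.81% and 2.26% of the A160P libraries. In the libraries of the other variants the shares ran between 2.22% and 6.03%, highest in K150A with 5.80% and 6.03%.

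The sites also differed in strength, taken as the UMIs in the lower of the 2 replicates. Its median was 9 UMIs for K146D, 8.5 for K150A, 8 for K152L and 7.5 for K150I, but 3.5 for S158H and 3 for A160P, the minimum the rule allowed. Of the 83 sites with at least 10 UMIs in both replicates, 50 belonged to K146D, 14 to K150A, 8 to K150I, 5 to S158H, 4 to K152L and 2 to A160P. At the edge of the rule, 53 sites had exactly 3 UMIs in their lower replicate and 30 had 4, and just outside it 89 peaks had 2 and 199 had 1. A160P supplied 18 of those with 3 and 59 of those with 1. Within each variant the 2 replicates gave a median ratio of UMI shares of 1.12 to 1.50. The widest gap, 7.79-fold, was at the S158H site beside YGK1, with 5 UMIs in replicate 1 and 40 in replicate 2, singled out after its values were seen.

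**Figure D1:**
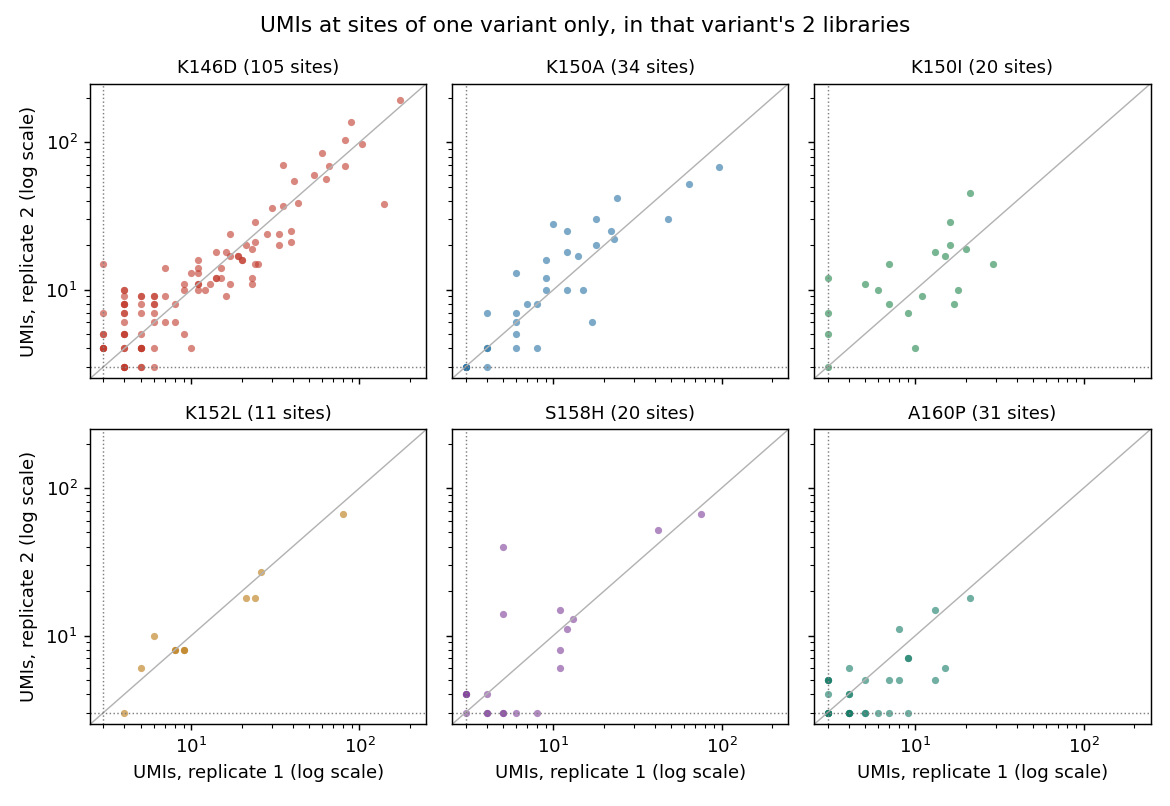
UMIs in replicate 1 (x axis, log scale) and replicate 2 (y axis, log scale) at each site of one variant only, with 1 point per site, the diagonal as a grey line and the minimum of 3 UMIs as dotted lines. K146D reaches 175 and 195 UMIs, whereas most A160P sites lie near the minimum, 18 of 31 with 3 UMIs in the lower replicate.

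The rule let other variants have UMIs in 1 of their replicates, and sites with such UMIs were common outside K146D and A160P. All 12 libraries of the other genotypes had 0 UMIs at 112 of the 221 sites. This held for 68 of 105 K146D sites and 21 of 31 A160P sites, but for 8 of 34 K150A, 6 of 20 K150I, 3 of 11 K152L and 6 of 20 S158H sites. Among the 83 sites with at least 10 UMIs, it held for 34 of 50 in K146D, 2 of 2 in A160P, 1 of 14 in K150A, 1 of 8 in K150I, 1 of 5 in S158H and 0 of 4 in K152L.

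These UMIs of other variants numbered 270, against 6906 of the sites' own. The rule favoured this contrast, by its minimum for the own variant and its limits on the others. The UMIs of other variants were unequally spread. Replicate 2 libraries of the other variants held 195 of them and replicate 1 libraries 75, although the replicate 2 and replicate 1 libraries of the variants totalled 48441 and 45215 UMIs. Some libraries held more of them than others. K152L replicate 2 had UMIs at 15 of the 105 K146D sites (14.3%, against 20.2% of all peaks), 66 in all and up to 19 at 1 site. K152L replicate 1 had 3 UMIs at 3 of these 105 sites. S158H replicate 2 had UMIs at 13 of the 34 K150A sites and 7 of the 20 K150I sites, against 31.3% of all peaks. K150I replicate 2 had UMIs at 7 of the 20 S158H sites, against 21.5% of all peaks. A160P replicate 2 had them at 5 of the 11 K152L sites, against 26.8% of all peaks. K146D replicate 2 had them at 10 of the 34 K150A sites, against 45.6% of all peaks. In the other libraries of those variants the numbers over the same sets of sites were 5 and 2 for S158H, 1 for K150I, 1 for A160P and 2 for K146D. The rule left out every peak where another variant had UMIs in both libraries. At a site with UMIs in 1 library of another variant, their absence from its other library was thus set by the rule. This absence is no measure of a difference between replicates. The shares over all peaks were not limited in this way. What gave rise to the UMIs of other variants was not tested.

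**Figure D2:**
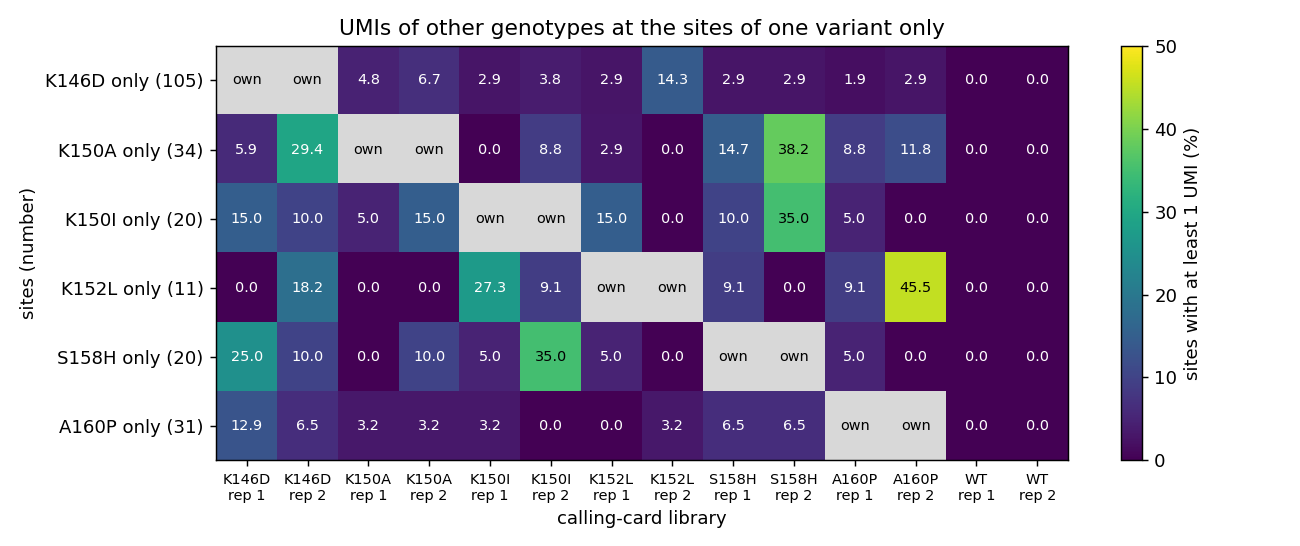
Share of the sites of one variant only (rows, number of sites in brackets) that had at least 1 UMI in each calling-card library (columns), in percent, with the variant's own libraries in grey. WT is at 0 by the rule, and the highest shares are 45.5% (A160P replicate 2 at K152L sites), 38.2% (S158H replicate 2 at K150A sites) and 35% (S158H replicate 2 at K150I sites and K150I replicate 2 at S158H sites). Over all peaks the shares were 26.8% for A160P replicate 2, 31.3% for S158H replicate 2 and 21.5% for K150I replicate 2. By the rule no site in a row has UMIs in both libraries of another variant, a limit that all peaks do not have.

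The strongest K146D site, at chrIV:220334-220435 (coordinates as in the deposited table, genome build R64), had 175 and 195 UMIs in K146D and 0 in the other 12 libraries. It lay inside a coding span and in no promoter window, taken as 1000 bp 5′ to 200 bp 3′ of a coding start, and the nearest start was that of PPH21, a protein phosphatase subunit gene. The next, at chrIV:1229615-1229715 with 103 and 98 UMIs, lay between the divergent genes LSM6, of an RNA-binding complex, and RGA2, which encodes a GTPase-activating protein for Cdc42. The third, at chrVIII:169525-169625 with 89 and 138 UMIs, lay inside a coding span with YHI9 as its window gene and SLT2, the cell wall integrity MAP kinase gene, as the nearest start. The fourth, at chrVIII:100588-100689 with 82 and 104 UMIs, was between convergent genes near LAG1, a ceramide synthase gene. All 4 were at 0 in every other library.

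Further K146D sites fell at genes of the mating and filamentation pathways. The FUS3 promoter had 2 of them, with 139 and 38 UMIs at chrII:192040-192141 and with 10 and 13 UMIs at chrII:191756-191856, and no other peak lay in its window. The second of these also had 9 UMIs in K152L replicate 2. PRM5, a pheromone-regulated membrane protein gene, had 41 and 55 UMIs at chrIX:141656-141757. HKR1, which encodes a mucin-like osmosensor, had 35 and 70. The SWI5 window had 11 and 10 UMIs and the SWI4 window 5 and 4, both genes of cell cycle transcription factors, and the window of the glucanase gene EXG1 had 24 and 15. The EXG1 site lay 56 bp from a WT site. The shared promoter of GAL1 and GAL10, galactose-use genes that are induced under the plate conditions of this assay, had 11 and 13 UMIs in K146D. The plasmid of the transposase fusion also carried a GAL1 promoter. Whether these insertions lay in the genome or in the plasmid was not tested.

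The K150A sites were led by 1 at chrV:260241-260342, upstream of the mitochondrial carrier gene PIC2, with 96 and 68 UMIs. It was followed by chrXIV:512394-512494 between convergent genes (64 and 52 UMIs), chrX:549668-549768 in the MNN14 window (48 and 30) and chrXV:285740-285840 between DIS3, of the RNA exosome, and the tryptophan permease gene TAT2 (24 and 42). Each of the 4 had 1 to 3 UMIs in other variants. No gene of the fixed lists of mating, filamentation, stress, cell wall, cell cycle and galactose genes had a site of K150A only.

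The strongest K150I site, with 21 and 45 UMIs at chrXIV:356936-357036, lay in the window of MEP2, an ammonium permease gene needed for pseudohyphal growth. A160P had a site of its own in the same window, with 5 and 3 UMIs at chrXIV:356408-356508, and MEP2 was the 1 gene with sites of 2 variants among the 215 genes in all windows. The next K150I sites were at DSE4, a daughter-cell glucanase gene (16 and 29 UMIs), at ECM5 (16 and 20) and in the windows of CBS1, COX9 and IDP1 (20 and 19). The ECM5 site lay 215 bp and the COX9 site 418 bp from a WT site.

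K152L had its strongest site at chrIV:917269-917370 before SIR4, a silencing gene, with 80 and 67 UMIs. The others of its 4 strongest were at chrXVI:683411-683511 inside a coding span near HOS1 (26 and 27), chrVII:919921-920101 between RPS0A and RTA1 (21 and 18) and chrXI:580255-580355 inside a coding span near YKR075C (24 and 18). K152L also had 5 and 6 UMIs in the window of MCM3, a replicative helicase subunit gene.

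S158H had 75 and 67 UMIs at its strongest site, before the ribosomal protein gene RPL12B, and 42 and 52 at DBP2, an RNA helicase gene. A site in the windows of GTR1 and the phosphate transporter gene PHO84 had 13 and 13 UMIs, 369 bp from a WT site, and 1 inside a coding span at chrVII:694221-694321 had 11 and 15. Between CAM1 and DIG1, the Ste12 inhibitor gene, S158H had 11 and 6 UMIs at chrXVI:463851-463951 and no other peak lay in the DIG1 window. Of the 20 S158H sites, 5 were within 500 bp of a tRNA gene, against 36 of the other 222 S158H sites (16.2%), 3 of 20 sites of K150I only and 199 of all 2188 peaks (9.10%). These sets differed in mitochondrial peaks, which were counted here. They were 1 of the 20 S158H sites, 54 of the other 222, 0 of the K150I sites and 75 of all peaks.

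Most A160P sites were weak, and 2 of 31 had at least 10 UMIs in both replicates. The paper reports few insertion peaks and a low correlation between replicates for A160P. It also reports far fewer colonies after selection for A160P, K146D and K152L than for WT. The strongest, at chrXII:704696-704800 with 21 and 18 UMIs, lay in the windows of RSO55, PUT7 and YLR278C, followed by sites inside coding spans at MNL1 (13 and 15), MFT1 (8 and 11) and GGA1 (9 and 7). PHD1, a transcription factor gene of pseudohyphal growth, had a site of A160P only with 13 and 5 UMIs.

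Position on the genome was not used by the rule and is described beside other sites without a test. Of the nuclear sites of one variant only, 36.8% lay inside a coding span, against 24.0% of WT sites, 22.6% of sites shared by several variants and 37.7% of all peaks. A160P carried much of this, with 24 of 31 sites (77.4%) inside coding spans, against 46.7% of the other A160P sites. Between divergent genes it had 1 site (3.23%), against 26.7% for K146D and 26.5% for K150A. The coding share was 10 of 20 for K150I, and 32.4% for K146D, 27.3% for K152L, 20.6% for K150A and 15.8% for S158H.

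Over all variants the coding share was 25.3% among the 83 sites with at least 10 UMIs in the lower replicate and 43.8% among the 137 nuclear ones with 3 to 9, of which A160P held 29. Within variants the direction differed. The share of strong sites was below that of weak ones in K146D (11 of 50 against 23 of 55), K150A (2 of 14 against 5 of 20) and K150I (2 of 8 against 8 of 12), and above it in S158H (2 of 5 against 1 of 14), K152L (2 of 4 against 1 of 7) and A160P (2 of 2 against 22 of 29). Of the strong sites 81.9% lay in at least 1 promoter window, against 58.7% of the weak ones, 73.8% of WT sites and 62.4% of all peaks. In all, 149 of the 221 sites (67.4%) lay in a promoter window, from 48.4% for A160P to 82.4% for K150A.

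**Figure D3:**
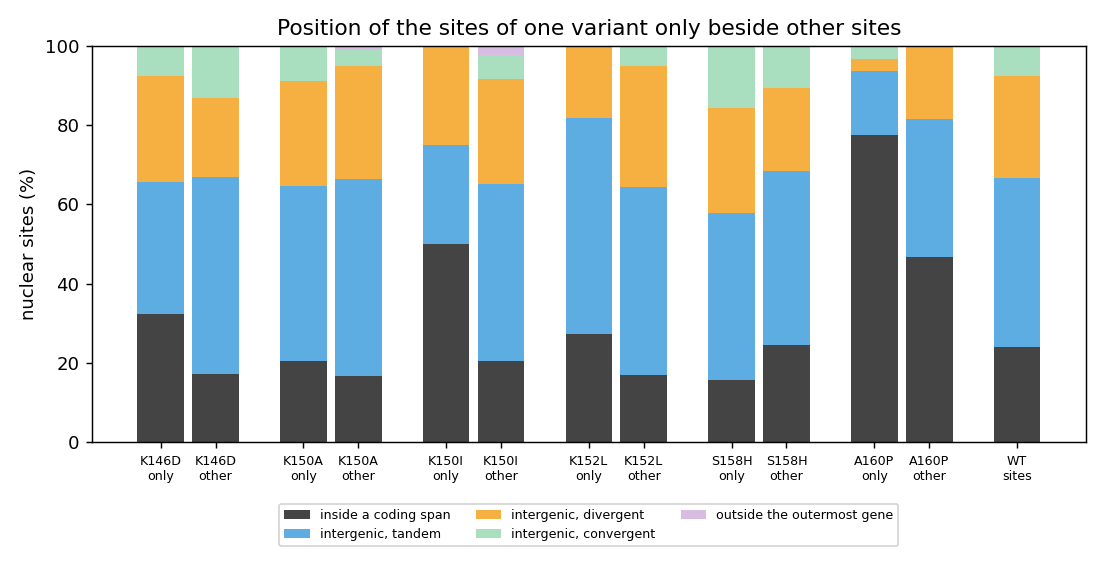
Share of nuclear sites (y axis, percent) inside a coding span or between tandem, divergent or convergent genes, for the sites of each variant only, the other sites of the same variant with at least 3 UMIs in both replicates, and WT sites. A160P stands apart, with 77.4% of its own sites and 46.7% of its other sites inside coding spans, against 24.0% of WT sites.

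Few of the sites lay beside a WT site, a share near that of all peaks. Within 1000 bp, edge to edge, 20 of the 221 (9.05%) had one, against 9.49% of sites shared by several variants and 7.82% of all peaks. K150I had 7 of its 20 sites there, K146D 7 of 105, K150A 3 of 34, S158H 2 of 20, A160P 1 of 31 and K152L 0 of 11.

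A closer look at K150I, taken after its values were seen, showed that 6 of its 20 sites lay 3239 to 3515 bp from the outermost annotated feature of a chromosome, inside YRF1-2, YRF1-8, YRF1-7, YRF1-1, YEL077C and YJL225C. YRF1 genes encode near-identical helicases of the subtelomeric Y′ elements, so that reads from 1 insertion may be placed on several copies, and whether the 6 are separate sites was not tested. They had 44 UMIs in K150I replicate 1 and 55 in replicate 2, and 5 of them had a WT site 238 to 241 bp away. Without them K150I kept 14 sites, of which 4 were inside coding spans and 2 near a WT site, and the total was 215. In the same way 3 sites lay within 2000 bp of the repeated ribosomal RNA genes, 2 of K150A and 1 of K152L.

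The number of sites rested more on WT replicate 1 than on any other library. Without it, the rule gave 358 sites, whereas leaving out any other library gave 209 to 242. This library was the deepest, with 12778 UMIs, and it had at least 1 UMI at 53.4% of all peaks, against 18.0% in WT replicate 2 and 18.4% to 45.6% in the variant libraries.

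Sites of one variant only were then set beside expression, which the rule did not use. The genes whose promoter window held a site numbered 215, or 216 pairs of a gene and the variant that held its site, and 203 pairs were tested in edgeR's quasi-likelihood test of the variant against WT. Few of the genes changed in this fit, which had no term for the replicate number. Of the 203, 3 (1.48%) passed an adjusted p of 0.05, against 0.529% of all 36834 tests of a gene in a variant. FUS3 and PRM5 fell in K146D, where 2 of 101 neighbour genes and 0.7% of all genes passed, and NFG1 rose in K150A, where 1 of 35 and 0.586% of all genes passed. None passed among 24 genes in K150I, 11 in K152L, 14 in S158H and 18 in A160P, where 0.0652%, 0.896%, 0% and 0.928% of all genes passed. DESeq2 also called 0 in these 4, and an unadjusted p under 0.05 was reached by 0, 0, 1 and 1 of them, where 2.57%, 5.64%, 2.92% and 4.79% of all genes reached it. In K150A 6 of 35 reached it (17.1%), against 7.74% of all genes, and in K146D 4 of 101 (3.96%), against 3.84%.

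The spread of the neighbour genes was close to that of all genes. Their median absolute log2 fold change against WT was 0.10, against 0.10 for all tests. The median log2 fold change was -0.02 in K146D, -0.05 in K150A, 0.00 in K150I, 0.11 in K152L, 0.04 in S158H and -0.04 in A160P, and the median over all tests was 0.00. No gene at the 4 strongest sites of any variant passed the test. SIR4 in K152L gave a log2 fold change of 0.01 ± 0.14 (SE) against WT, RPL12B in S158H 0.07 ± 0.13, PIC2 in K150A 0.01 ± 0.62, MEP2 in K150I -0.12 ± 0.31 and RGA2 in K146D -0.04 ± 0.07.

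With the replicate number as a block, 10 of the 203 passed, against 2.42% of all tests, and they held the 3 above. The 7 others were CMC4, IST1, MMR1, VMR1 and ROF1 in K150A, MCM3 in K152L (log2 fold change -0.29, adjusted p = 0.0088 from edgeR) and UBP9 in S158H. K150A then had 6 of 35 neighbour genes called, against 4.82% of all its genes, K152L 1 of 11, against 3.62%, and S158H 1 of 14, against 1.19%. All 5 added K150A genes had between 6 and 28 UMIs per library at their site.

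**Figure D4:**
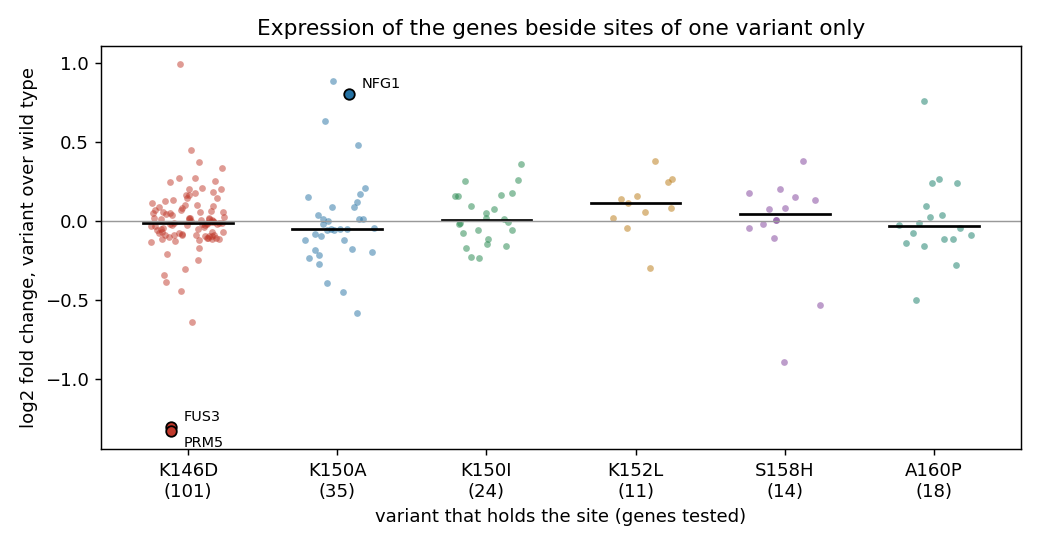
Log2 fold change of variant over wild type (y axis) for each gene with a site of that variant only in its promoter window, with the median as a black bar and the number of genes tested in brackets. Outlined points passed an adjusted p of 0.05, namely FUS3 (-1.31), PRM5 (-1.33) and NFG1 (0.80), and the medians lie between -0.05 and 0.11.

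FUS3 (YBL016W), the mating MAP kinase gene, had 42.7, 47.7, 52.6, 53.3 and 45.7 CPM in the 5 K146D libraries, against 122, 108, 113, 143 and 112 CPM in WT. The groups did not overlap, and expression fell by 1.31 ± 0.14 on the log2 scale (SE, edgeR adjusted p = 1.07e-07). FUS3 also fell in A160P, with a mean of 49.4 ± 9.52 CPM, and in K152L, with 58.7 ± 7.61, against 119.7 ± 13.96 in WT (SD, n = 5 each, edgeR adjusted p = 1.22e-07 and 9.97e-06). Neither variant had UMIs in both replicates at the FUS3 promoter. In K150A, K150I and S158H the means were 98.2, 106.7 and 104.3 CPM, and none passed the test. Against the mean of the other 6 genotypes FUS3 was lower in K146D, with a log2 difference of -0.81 and an adjusted p of 2.55e-05 in edgeR.

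PRM5 (YIL117C) had 28.1, 20.8, 28.4, 24.4 and 20.1 CPM in K146D, against 52.4, 64.6, 79.2, 53.7 and 60.02 CPM in WT, again without overlap. It fell by 1.33 ± 0.14 on the log2 scale (SE, edgeR adjusted p = 8.98e-08). PRM5 also fell in K152L (-1.60), A160P (-1.53) and K150A (-0.91, edgeR adjusted p = 0.00025), none of which had a UMI at the K146D site. With the replicate block it also passed in K150I (-0.53, edgeR adjusted p = 0.0103) and S158H (-0.47, adjusted p = 0.0240). Its window held another peak that was mostly of WT, with 1 and 1 UMIs in K146D and 18 and 1 in WT. Against the other 6 genotypes the difference in K146D was -0.49 (edgeR adjusted p = 0.0332), and it did not pass without K146D replicate 2, 4 or 5, where adjusted p was 0.244, 0.0978 and 0.135 within a range of 0.00194 to 0.244 over all alternatives.

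NFG1 (YLR042C), a gene described as a negative regulator of the filamentous growth pathway, had 47.5, 52.1, 55.4, 56.3 and 78.8 CPM in K150A, against 26.8, 31.1, 28.1, 49.9 and 30.8 CPM in WT. The highest WT library reached into the K150A range, and the rise was 0.80 ± 0.20 on the log2 scale (SE, edgeR adjusted p = 0.0484). This call was lost in 26 of 35 fits that left out 1 library, among them every K150A library, and the adjusted p ranged from 0.00202 with the replicate block to 0.242 without K150A replicate 5. Against the other 6 genotypes the log2 difference was 1.51 with an adjusted p of 3.66e-09 in edgeR, and this call was lost in 0 of the 35. The other 6 included the libraries in which NFG1 fell against WT, those of K146D (10.5 ± 1.88 CPM) and A160P (8.77 ± 1.48), against 33.3 ± 9.43 in WT (SD, n = 5 each). The K150A site at chrXII:230781-230882 had 12 and 25 UMIs. A second peak in the window, at chrXII:231148-231252, had 26 and 20 UMIs in K150A, 1 and 2 in S158H and 0 in WT, so that the rule did not count it.

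DIG1 (YPL049C) had 118, 98.4, 97.3, 125 and 131 CPM in S158H, against 109.7, 101, 100.4, 124 and 133 CPM in WT, and the 2 groups lay on top of each other (log2 fold change 0.01 ± 0.10). Of the neighbour genes, 4 of 203 passed the test against the other 6 genotypes, FUS3, PRM5, NFG1 and DIG1, against 0.339% of all tests. DIG1 was higher in S158H by 0.33 on the log2 scale (edgeR adjusted p = 0.0308), and the other 6 included K146D, K152L and A160P, where DIG1 fell against WT, to means of 77.3, 78.7 and 80.6 CPM. The DIG1 call was lost without S158H replicate 1, 4 or 5, where adjusted p was 0.167, 0.288 and 0.273 within a range of 0.00694 to 0.288 over all alternatives.

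**Figure D5:**
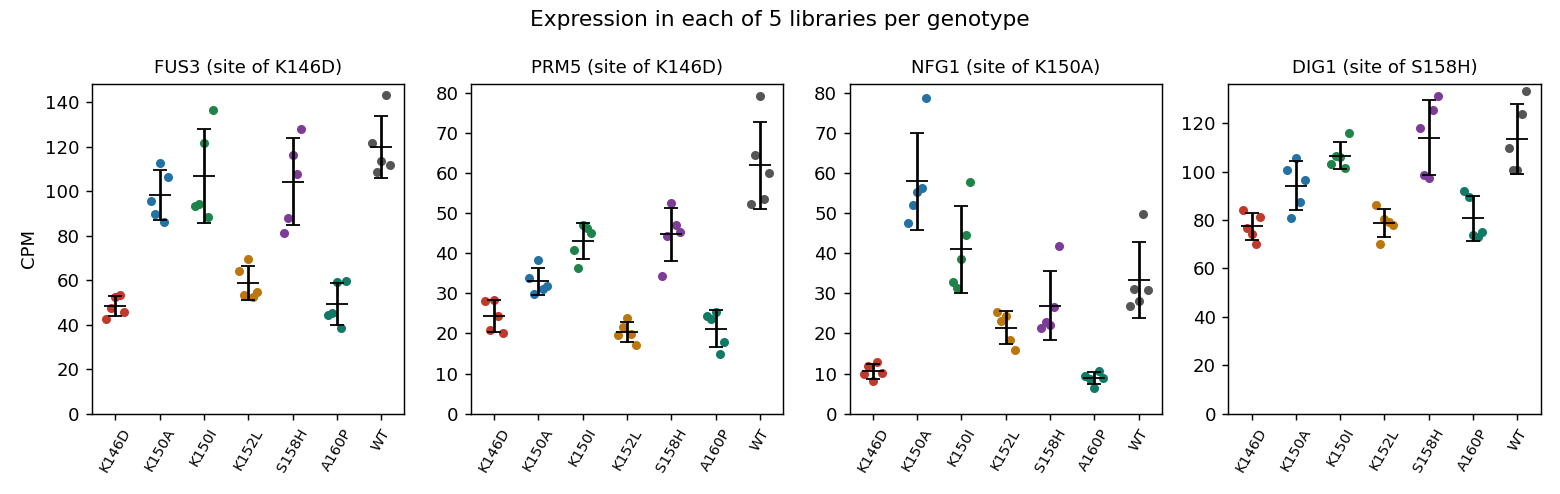
Expression in CPM (y axis, from 0) of FUS3, PRM5, NFG1 and DIG1 in each of 5 libraries per genotype, with the mean and SD in black, and the variant that held the site in each title. FUS3 and PRM5 are low in K146D, K152L and A160P, at FUS3 means of 48.4, 58.7 and 49.4 CPM against 119.7 CPM in WT.

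The fixed gene lists were also read for sites. In the list of 56 pheromone response and mating genes, 3 had a site of one variant only in their window (FUS3, PRM5 and DIG1), or 5.36% against 3.58% of all genes, and 22 (39.3%) had a WT site, against 4.60% of all genes. Among filamentation and invasion genes 3 of 42 had one (HKR1, MEP2 and PHD1), against 11 with a WT site. Of 40 cell wall genes 2 had one (EXG1 and DSE4), against 8 with a WT site. Of 27 genes of Mcm1 and the cell cycle 3 had one (SWI4, SWI5 and MCM3), against 2 with a WT site. Of 10 galactose genes 2 had one (GAL1 and GAL10, which share 1 K146D site, with the plasmid limit given above), against 1 with a WT site. None of 33 osmotic and general stress genes had one, against 2 with a WT site. The osmosensor gene HKR1, which had a K146D site, was placed in the filamentation list. Over the 6 lists 13 of 208 genes (6.25%) had a site of one variant only, against 215 of all 6002 genes (3.58%).

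Of these 13 genes FUS3 and PRM5 changed against WT in the variant that held the site. In K146D, GAL1 stood at 10.9 CPM against 11.6 in WT and GAL10 at 5.73 against 4.96, and HKR1, SWI5, SWI4 and EXG1 gave log2 fold changes of 0.01, 0.00, 0.11 and -0.10. PHD1 gave 0.24 and MEP2 0.04 in A160P, DSE4 gave 0.25 in K150I, and MCM3 -0.30 in K152L without the block. Of the 53 mating genes tested, 17 fell and 1 rose in K146D, and 19 fell and 2 rose in A160P. In K152L 16 fell and 2 rose. Of all genes, 0.7%, 0.928% and 0.896% were called in either direction in these variants. Most of the mating genes that fell there had no site of that variant only. In K150A 1 fell and 6 rose, in K150I 0 fell and 3 rose, and in S158H 0 fell and 0 rose. There 0.586%, 0.0652% and 0% of all genes were called.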

How the data were processed

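Calling-card and RNA-seq tables of 6 Ste12 variants and WT were used. Per the labels and methods the authors mapped reads to build R64, counted insertions by UMI and called peaks with MACS2. STAR, bcl2fastq and Trim Galore 0.4.1 are named in the submitters' processing notes. The deposited peak values are natural log (ln) values of UMIs per 1000000 plus 1. UMIs were recovered by dividing by each library's smallest positive value, and 100% of 30632 values came out whole within 0.001. Peaks were called by the authors before this table, and how replicates were combined is not given in the sources used here. The deposited RNA values are UMI counts per gene. Transposase-only libraries were not used here, so insertions that Ste12 did not direct were not told apart from those it did. URA3 was left out as in the study, whose authors had not checked that it was fully deleted.

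Promoter windows reached 1000 bp upstream and 200 bp downstream from the coding starts of 6002 nuclear protein-coding genes (RefSeq table of R64, names and coordinates), with an overlap of at least 1 bp. Of 215 window genes, 214 were matched in the count table and 202 were tested. Coding span means the annotated gene from start to end.

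Counts were tested with edgeR 4.0.16 in R 4.3.3 (quasi-likelihood, TMM, filterByExpr, 6139 of 7124 genes, 1 fit of 35 libraries, Benjamini-Hochberg adjustment over all genes). DESeq2 1.42.0 was an alternative, and both were tested on simulated data. CPM are TMM-scaled. Same-numbered libraries deviated together (r from 0.190 to 0.760 over 30 pairs, all above 0.1, median 0.567, against -0.451 for different numbers). The main fit had no term for this pairing. A fit with the replicate number as a block is given beside it for STE12 and for calls among the neighbour genes. The common dispersion was 0.069 in the main fit and 0.016 with the block. The labels place replicates 1 and 2 in a first experiment and 3 to 5 in a second, and say no more of the number. The first principal component (54.3% of variance) separated replicates 1 to 3 from 4 and 5.

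Sites named were the 4 strongest of each variant by the lower share of library UMIs, those beside a gene called in expression and those beside a gene of 6 fixed lists. The members and lists were chosen with earlier results of these data known. The share of sites with a Ste12 motif was planned but needs the genome sequence, which was not used here, and no sequence is printed.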

Additional observations from a re-analysis of the deposited data

Results flagged for a closer look

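Within the 5 libraries of a genotype, 8 groups were checked for a single library far from the rest, for the 4 genes called beside a site of one variant only. NFG1 was set apart in WT replicate 4, at 49.9 CPM, while the other 4 WT libraries lay between 26.8 and 31.1 CPM, and the gap was 76.2% of the group's range on the log2 scale. Chance gives such a gap in about 1 in 20 groups. Without WT replicate 4 the log2 fold change of NFG1 in K150A over WT was 0.99, against 0.80 with it.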

How the results depend on the processing

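The 221 sites became 509 with a minimum of 1 UMI, 138 with 5 and 83 with 10, 112 when all 12 other libraries had to be at 0, and 360 when 1 WT replicate could hold UMIs. A minimum of 2 gave 310, thinning to the smallest library 234 (178 of them among the 221) and joining peaks under 300 bp apart 189. Leaving out 1 library gave 209 to 358. The share near a WT site was 9.05%, and it was 1.81% within 200 bp, 6.79% within 500 bp, and 24.9% for any WT UMI. Leaving out the chromosome-end K150I sites, chosen after seeing the data, gave 6.98%. Neighbour genes called against WT numbered 3 and ranged from 2 to 3 without 1 library. They were 10 with the replicate block, 2 with RLE size factors, without a filter or with the variant and WT alone, and 4 by the nearest start. Against the other 6 genotypes 4 were called, 3 to 4 without 1 library and 5 with the replicate block, which added ARG8 in K146D. DIG1 in S158H, not called against WT, changed sign in 6 fits without 1 library, in a range of -0.0497 to 0.0686. The motif alternatives were not run. At this depth 53 sites stood at the minimum of 3 UMIs.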
